A study of Mus musculus with 4 samples.

Results

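The genes described here encode the machinery that carries proteins into mitochondria and the machinery that fuses, divides and removes mitochondria. They are all genes whose symbol begins with Timm or Tomm followed by a digit, together with Mfn1, Mfn2, Opa1, Dnm1l, Fis1, Mff, Oma1, Yme1l1, Immt, Samm50, Pink1, Park2, Hspd1, Hspe1 and Hspa9. This rule uses names only and no measured value. It found 37 of the 18193 genes that had a probe set assigned to a single gene, and 1 probe set stood for each gene. Park2, which encodes the ubiquitin ligase Parkin, and Tomm5 and Tomm6 had no probe set of that kind and were not tested here.

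Gene expression was measured on 4 Affymetrix 3' expression arrays in C2C12 cells, an immortalised mouse myoblast line that exits the cell cycle and forms myotubes when serum is lowered. All cells carried a stably integrated hairpin plasmid under 750 µg/mL hygromycin B. The shControl group (2 arrays) carried a hairpin with no target, and the shLSD1 group (2 arrays) carried a hairpin against LSD1, the histone demethylase encoded by Kdm1a. Both groups were grown with 10% fetal bovine serum and 25 mM glucose, and RNA was taken 48 hours after the switch to 2% horse serum. The labels name 1 stable selection per hairpin and do not say that arrays come from separate cultures, so an effect of selection and one of LSD1 loss cannot be told apart. The p-values below therefore reflect only how far these particular arrays differ, a spread that could be technical. No untransfected or second-hairpin group was analysed here.

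Nearly all mitochondrial proteins are made in the cytosol. The TOM complex of the outer membrane receives them, the TIM23 complex passes those with a cleavable presequence across or into the inner membrane, and the TIM22 complex, served by small TIM chaperones of the intermembrane space, inserts carrier proteins. Matrix chaperones pull the chain in and fold it, while opposing fusion and fission GTPases set the shape of the network, which is remodelled as myoblasts become myotubes.

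Promoter sequences are shown for Timm29, Samm50 and Timm17a, which passed the test described below, and for the chaperonin gene Hspe1. Hspe1 lies head to head with the chaperonin gene Hspd1. RefSeq sequence of build GRCm38.p6 was matched for 33 of the 37 genes, in 41 windows that end just before an annotated start. The Timm29 window lies at chr9:21592472-21592721 on the plus strand, Samm50 at chr15:84191990-84192239 on the plus strand, Timm17a at chr1:135313738-135313987 on the minus strand and Hspe1 at chr1:55087898-55088147 on the plus strand. Each is 250 bases, written 5′ to 3′ on the strand of the gene. Capitals mark matches, on either strand, to any of 5 motifs. They are the CCAAT box, the ETS core CCGGAAG, the heat shock unit TTCNNGAA, the TATA box as TATAAA, and a GCGC pair, which is GCGC repeated after a gap of any 2 bases.
Timm29: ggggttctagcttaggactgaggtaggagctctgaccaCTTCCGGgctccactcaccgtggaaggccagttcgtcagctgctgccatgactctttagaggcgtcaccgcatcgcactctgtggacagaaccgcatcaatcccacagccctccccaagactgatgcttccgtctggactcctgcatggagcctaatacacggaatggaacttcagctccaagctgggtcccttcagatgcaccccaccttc
Samm50: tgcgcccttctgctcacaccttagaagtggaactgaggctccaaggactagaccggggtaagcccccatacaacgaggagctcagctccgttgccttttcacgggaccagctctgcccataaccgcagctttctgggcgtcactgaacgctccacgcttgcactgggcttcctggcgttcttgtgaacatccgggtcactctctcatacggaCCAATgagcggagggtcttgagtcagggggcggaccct
Timm17a: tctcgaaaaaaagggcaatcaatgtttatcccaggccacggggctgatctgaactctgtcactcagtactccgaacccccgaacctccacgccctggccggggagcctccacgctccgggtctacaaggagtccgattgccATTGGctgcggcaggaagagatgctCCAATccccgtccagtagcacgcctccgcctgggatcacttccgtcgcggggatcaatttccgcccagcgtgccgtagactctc
Hspe1: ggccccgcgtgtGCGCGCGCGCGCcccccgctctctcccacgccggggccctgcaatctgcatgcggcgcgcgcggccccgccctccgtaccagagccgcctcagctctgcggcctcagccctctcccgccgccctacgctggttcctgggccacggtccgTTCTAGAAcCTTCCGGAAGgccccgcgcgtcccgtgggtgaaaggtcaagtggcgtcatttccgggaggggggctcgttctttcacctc
The Timm29 window holds 1 CCGGAAG match, read on the opposite strand, and none of the other letters searched. Samm50 holds 1 CCAAT match and Timm17a holds 2, of which 1 is on the opposite strand. The Hspe1 window holds 2 matches each to CCGGAAG, the GCGC pair and TTCNNGAA. The GCGC pairs overlap one another. The CCGGAAG matches lie on opposite strands and overlap each other, and the TTCNNGAA match nearer the start overlaps both. Hspd1 runs the other way on the minus strand, and its annotated starts lie 95 and 216 bases from that of Hspe1. Only the distances were computed, not on which side of the Hspe1 start they lie.

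Some of these letters are more common in front of the genes for import and dynamics than elsewhere. CCGGAAG, the core bound by ETS factors such as GABP, a known regulator of nuclear genes for mitochondria, was present in 36.6% of the 41 windows, against 6.91% of all 32851 promoter windows and 13.8% of the 11323 windows of tested genes. Its 14 genes were Fis1, Hspd1, Hspe1, Immt, Mfn1, Timm10, Timm23, Timm29, Timm8a2, Timm8b, Tomm22, Tomm34, Tomm70a and Yme1l1. The GCGC pair, the centre of the site of NRF1, was present in 14.6% of the windows, against 4.98% of all and 10.7% of those of tested genes, and its 6 genes were Hspd1, Hspe1, Oma1, Opa1, Pink1 and Tomm20. TTCNNGAA, the paired unit of heat shock elements, was in 19.5% of them, against 7.17% and 5.74%. CCAAT was in 34.1%, against 33.8% and 35.2%, and TATAAA was in 2.44%, against 12.4% and 6.44%. These are counts of letters and were not tested. The starts of Hspd1 lie 95 and 216 bases from that of Hspe1. Whether a window of Hspd1 overlaps that of Hspe1 depends on the side, which was not computed. Letters in any shared stretch count for both genes. The median GC content was 57.6% in the windows of these genes and 52.4% in all windows. It was not computed for the windows of tested genes.

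The knockdown was present on both shLSD1 arrays. Kdm1a measured 4603 and 4588 in shControl and 922 and 1034 in shLSD1, a log2 fold change of -2.23 (SE 0.07, n = 2 and 2, limma adjusted p = 2.91e-05), or 21.3% of control. The muscle identity of the cells was checked on 7 markers, all above the filter, of which 6 fell and 0 rose; the summed signal was 118012 to 120243 in shControl and 80644 to 88397 in shLSD1. The 4 measured proliferation markers all rose, with a sum of 8114 to 8174 in shControl and 9936 to 10376 in shLSD1. All measured adipocyte (3), leukocyte (3) and endothelial (3) markers had a mean over the 4 arrays below the signal filter. Among them Tek, an endothelial receptor, read 27.8 and 26.4 in shControl and 66.9 and 109 in shLSD1, and the endothelial sum was 68.6 to 70.3 in shControl and 118 to 148 in shLSD1. Of 4 neuronal markers Map2 and Tubb3 rose, with Snap25 and Elavl3 below the filter, and of 3 epithelial markers Cdh1 rose, with Epcam and Krt18 below it. Whether these shifts bear on the values below was not tested.

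Most genes of the import and dynamics machinery had small differences between the groups. Of the 37 genes, 35 had a mean log2 signal above the filter of 6.03 (a signal of 65.6), and each of the 35 was above it in both groups, the lowest signal on any array being 241. Of these, 2 rose (Tomm40l and Samm50), 3 fell (Timm29, Hspa9 and Timm17a) and 30 did not pass the test (limma, Benjamini-Hochberg adjusted p under 0.05 over all 10874 genes tested). That is 14.3% of the genes tested here, against 15.8% of all tested genes, so the share called was near the background. Higher calls made up 8.75% and lower calls 7.09% of all tested genes. The 35 log2 fold changes had a median of -0.044, against 0.0036 over all tested genes, and their sizes had a median of 0.071, against 0.15. The probe sets of these genes were also brighter, with a median mean log2 signal of 11.1 against 9.55, and 30 of 35 lay above the median of all tested genes. The groups did not overlap for 20 of 35 genes (57.1%), against 60.1% of all tested genes.

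**Figure D1:**
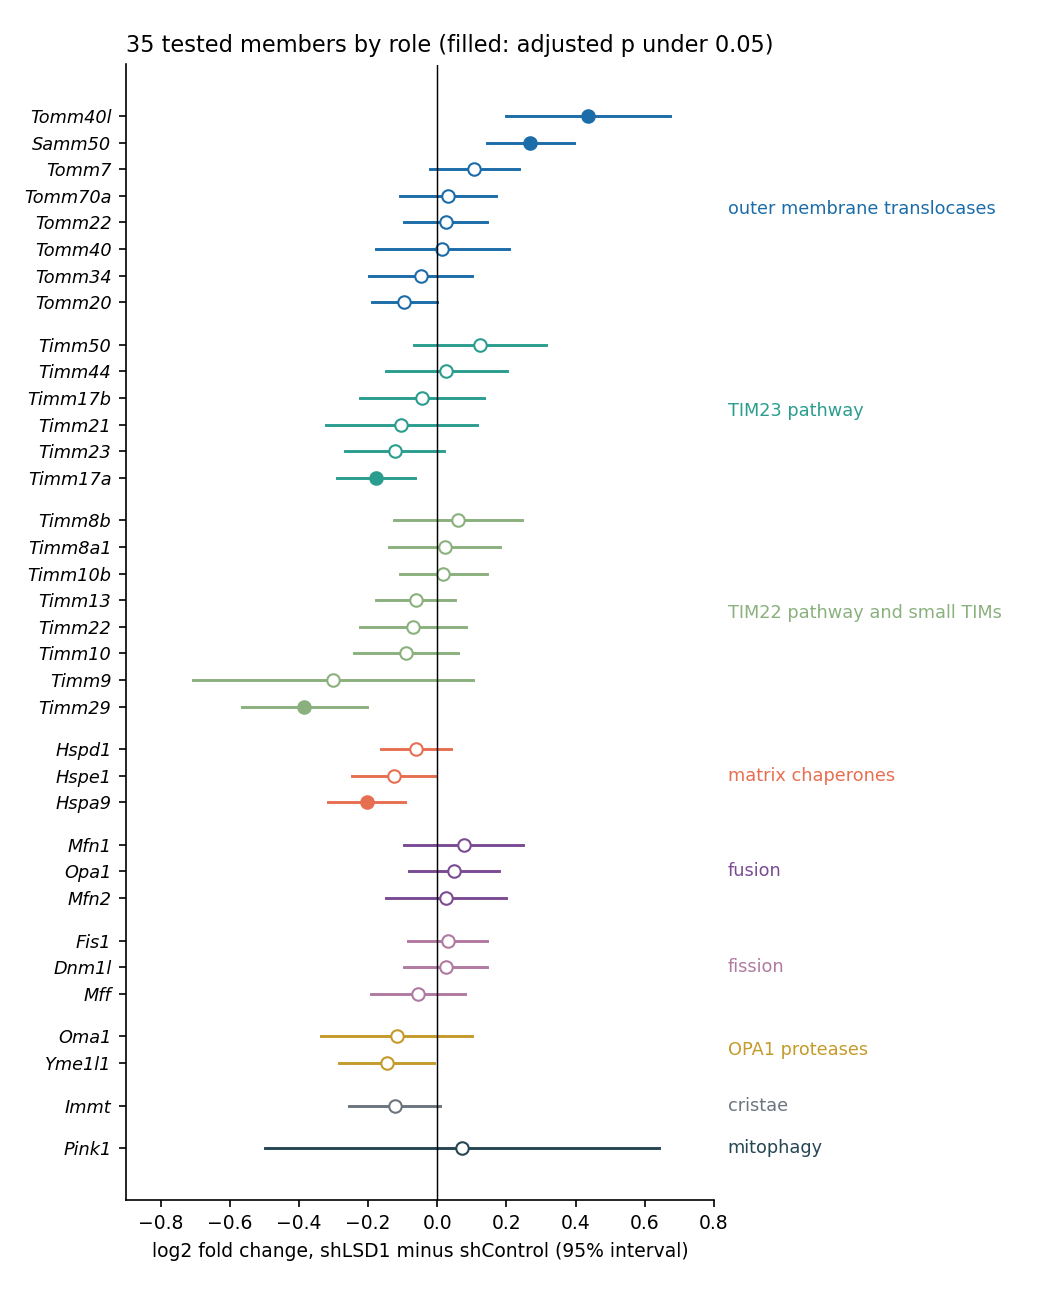
Log2 fold change (shLSD1 minus shControl, x axis) of the 35 tested genes, grouped by role, with points for the estimate and lines for the 95% interval of limma (n = 2 and 2 arrays). Filled points passed the adjusted threshold: Tomm40l (0.44) and Samm50 (0.27) on the higher side, Timm17a (-0.18), Hspa9 (-0.20) and Timm29 (-0.38) on the lower side.

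For the 30 genes that missed the threshold, the 95% intervals limit the difference of the probe set used, given the spread between these arrays. The interval lay within 0.25 on the log2 scale (1.19-fold) in either direction for 22 of them and within 0.5 (1.41-fold) for 28. The genes with wider intervals were Timm9 and Pink1, and all 30 lay within 1 (2-fold). These intervals are not adjusted for the number of genes. Other probe sets of a gene could lie outside its interval. A Dnm1l probe set at 0.41 lay outside -0.096 to 0.14, and a Tomm70a probe set at -0.27 lay outside -0.11 to 0.17.

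In the outer membrane, Tomm40l and Samm50 rose, and the genes of the TOM complex that were tested did not pass. Tomm40l encodes a relative of the channel protein Tom40. Its signal was 435 and 407 in shControl and 586 and 552 in shLSD1. Both shLSD1 arrays were above both controls, and the log2 fold change was 0.44 (SE 0.10, limma adjusted p = 0.0259), or 1.35-fold. The other Tomm40l probe set read 280 and 283 in shControl and 390 and 398 in shLSD1, a log2 fold change of 0.48, and also passed when every probe set was tested (limma adjusted p = 0.0354). Samm50 encodes the channel that inserts beta-barrel proteins, Tom40 among them, and touches the cristae-organising MICOS complex. Its signal was 3675 and 3630 in shControl and 4259 and 4543 in shLSD1. The groups did not overlap, and the log2 fold change was 0.27 (SE 0.05, limma adjusted p = 0.0147), or 1.20-fold. A second, cross-hybridisation-prone Samm50 probe set gave 0.25 (limma adjusted p = 0.0114 with every probe set tested), and a further one lay below the filter.

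The channel gene Tomm40 itself measured 1178 and 1346 in shControl and 1265 and 1281 in shLSD1. The shLSD1 arrays lay between the controls, with a log2 fold change of 0.015 (95% interval -0.18 to 0.21); its difference from the change of Tomm40l was not tested. Tomm20, a receptor for presequences, measured 13902 and 14256 in shControl and 13211 and 13150 in shLSD1. These groups did not overlap, but the log2 fold change of -0.095 did not pass (limma adjusted p = 0.159), and the other 5 Tomm20 probe sets ranged from -0.20 to 0.14. Tomm22, the central receptor, measured 4888 and 4819 in shControl and 5089 and 4786 in shLSD1. Its groups overlapped, with a log2 fold change of 0.024 (limma adjusted p = 0.793). Tomm70a, which receives carrier precursors from cytosolic chaperones, measured 2205 and 2222 in shControl and 2197 and 2330 in shLSD1. Its log2 fold change was 0.032 (limma adjusted p = 0.762), and its other 3 probe sets above the filter ranged from -0.27 to -0.026. Tomm7, a small subunit that modulates assembly of the complex, measured 0.11, and Tomm34, a cytosolic co-chaperone, -0.048 on the same scale. Tomm20l stayed below the filter, at signals from 13.8 to 25.9. Tomm5 and Tomm6 share their probe sets with other genes and were not tested. The probe set of Tomm5 and Gm8069 read 4633 and 4456 in shControl and 5099 and 5366 in shLSD1. Those of Tomm6 and Prickle4 read 1310 and 1346 against 1511 and 1356, and 7013 and 6931 against 7343 and 6966.

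The genes of the presequence translocase TIM23 gave 1 fall among 6. Timm17a encodes one of the alternative Tim17 subunits that line the translocation path. Its signal was 5694 and 5551 in shControl and 4872 and 5075 in shLSD1. Both shLSD1 arrays were below both controls, and the log2 fold change was -0.18 (SE 0.05, limma adjusted p = 0.0480), or 88.4% of control. It has only this probe set, and its adjusted p is close to the threshold. The X-linked alternative Timm17b measured 1205 and 1325 in shControl and 1251 and 1200 in shLSD1, with overlapping groups and a log2 fold change of -0.044 (limma adjusted p = 0.741). The difference between Timm17a and Timm17b was not tested.

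Timm23, the channel subunit that names the complex, measured 6531 and 6529 in shControl and 5658 and 6349 in shLSD1. Both shLSD1 arrays were lower, replicate 1 by the larger amount, and the log2 fold change of -0.12 did not pass (limma adjusted p = 0.223). Without shLSD1 replicate 2 it was -0.21 and passed (limma adjusted p = 0.0112), and without shLSD1 replicate 1 it was -0.040 (limma adjusted p = 0.582). Timm50, the receptor that hands presequences to the channel, measured 689 and 674 in shControl and 742 and 743 in shLSD1. Its groups did not overlap, and the log2 fold change was 0.12 (limma adjusted p = 0.351). Timm44, which anchors the import motor to the channel, measured 1513 and 1562 in shControl and 1655 and 1482 in shLSD1, with overlapping groups and a log2 fold change of 0.026 (limma adjusted p = 0.849). Timm21, which links the inner and outer translocases, measured -0.10 on the log2 scale (limma adjusted p = 0.507).

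**Figure D2:**
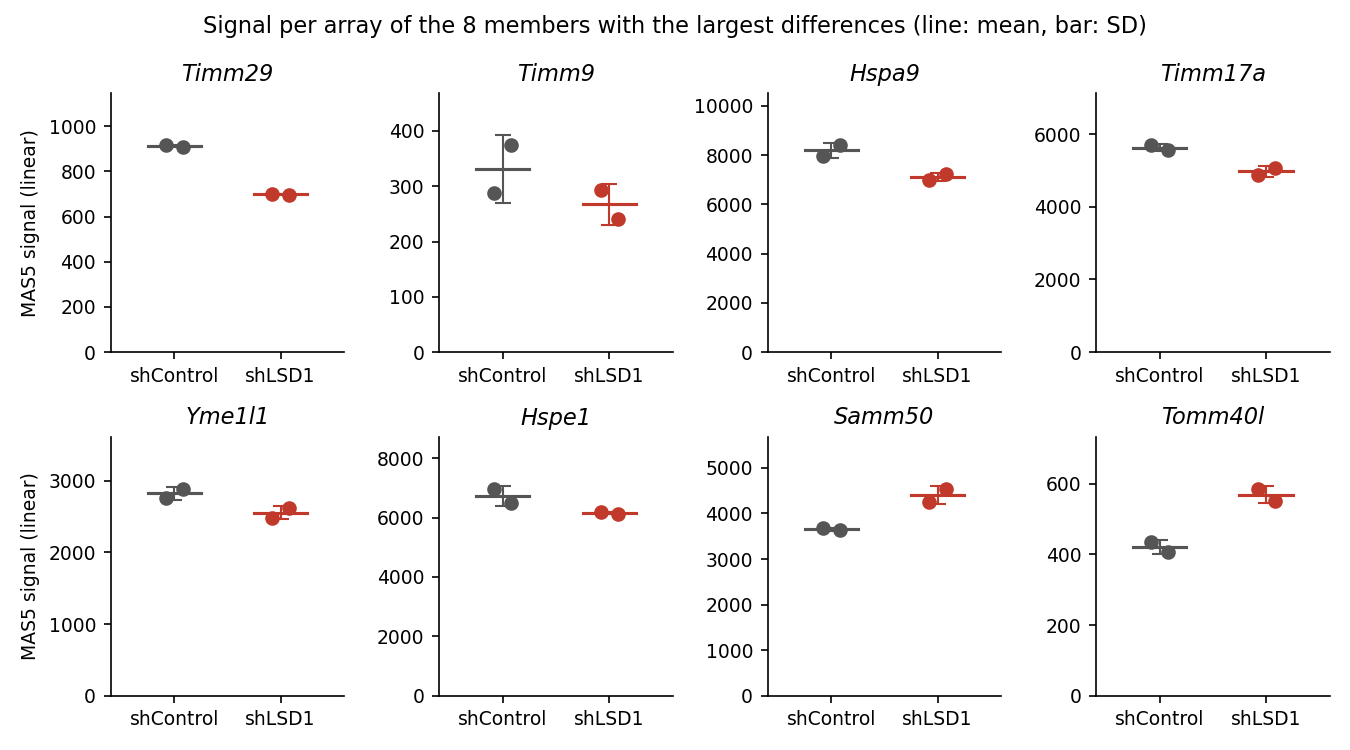
MAS5 signal on a linear scale (y axis, from 0) on each of the 4 arrays for the 8 tested genes with the largest log2 fold changes in either direction. Points are arrays, horizontal lines the group means and bars the SD (n = 2). The groups overlap for Timm9, where shLSD1 replicate 1 (293) is above shControl replicate 1 (287), and are separate for Timm29, Hspa9, Timm17a, Yme1l1, Hspe1, Samm50 and Tomm40l.

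In the carrier pathway, Timm29 fell and the remaining genes did not pass the test. Timm29 encodes a subunit of the TIM22 complex that helps assemble it. Its signal was 916 and 909 in shControl and 701 and 698 in shLSD1. Replicates of each group lay close together and the groups did not overlap. The log2 fold change was -0.38 (SE 0.08, limma adjusted p = 0.0150), or 76.6% of control. Its other probe set read 569 and 510 in shControl and 368 and 460 in shLSD1, a log2 fold change of -0.39 that did not pass when every probe set was tested (limma adjusted p = 0.107). Timm22, the pore of the complex, measured 1972 and 2048 in shControl and 1841 and 1989 in shLSD1. Its groups overlapped, with a log2 fold change of -0.071 (limma adjusted p = 0.517).

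The small TIM chaperones escort hydrophobic precursors across the intermembrane space as rings of alternating subunits. Timm9 measured 287 and 374 in shControl and 293 and 241 in shLSD1. The groups overlapped and the spread was wide, with an estimate of -0.30 on the log2 scale (limma adjusted p = 0.288, SE 0.17), and its other probe set gave 0.19. Its ring partner Timm10 measured -0.090, and Timm10b, which docks the rings on TIM22, measured 0.017. Timm13, Timm8a1 and Timm8b, whose products form the alternative ring, measured -0.063, 0.021 and 0.059. For none of the small TIM genes tested did limma give an adjusted p under the threshold or an unadjusted p under 0.05. Timm8a2 stayed below the filter, with signals between 0.343 and 5.26.

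Among the matrix chaperones Hspa9 fell and the chaperonin genes did not pass. Hspa9 encodes mortalin, the heat shock protein that drives the import motor by ATP hydrolysis. Its signal was 7982 and 8400 in shControl and 6996 and 7218 in shLSD1. The groups did not overlap, and the log2 fold change was -0.20 (SE 0.05, limma adjusted p = 0.0269), or 86.8% of control. Further Hspa9 probe sets with enough signal measured -0.015, -0.16 and 0.038 and did not pass, so this fall rests on 1 probe set. Hspd1 and Hspe1 encode the barrel and the lid of the folding chamber. Hspd1 measured 8674 and 8629 in shControl and 8157 and 8420 in shLSD1, a log2 fold change of -0.062 (limma adjusted p = 0.383). Hspe1 measured 6971 and 6485 in shControl and 6189 and 6136 in shLSD1, a log2 fold change of -0.13 (limma adjusted p = 0.145). For both genes the shLSD1 arrays were lower than the controls without overlap. The second Hspe1 probe set gave -0.15.

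The calls of the 5 genes were lost when either control array was left out and when the variance model had no intensity trend. The estimates kept their direction, but this was fixed in advance. The groups of these genes did not overlap, so leaving out 1 array cannot turn a sign. With a control array left out, that group has 1 array, which is assumed to vary like the shLSD1 arrays. The log2 fold changes without shControl replicate 1 and without shControl replicate 2 were -0.38 and -0.39 for Timm29, 0.48 and 0.39 for Tomm40l, and 0.28 and 0.26 for Samm50. They were -0.24 and -0.17 for Hspa9 and -0.16 and -0.20 for Timm17a. Without shControl replicate 1 the adjusted p (limma) was 0.117 for Timm29, 0.104 for Tomm40l, 0.118 for Samm50, 0.132 for Hspa9 and 0.309 for Timm17a. Without shControl replicate 2 it was 0.107, 0.161, 0.132, 0.262 and 0.208 in the same order. The share of all tested genes called was then 5.35% and 5.33%, and 0 of the 35 genes were called with either array left out, with 5 at an unadjusted limma p under 0.05 in each case. Without shLSD1 replicate 1 the calls of Tomm40l (limma adjusted p = 0.0666) and Timm17a (limma adjusted p = 0.0646) were lost, and 3 remained. Without the intensity trend in the variance model, 0 of the 35 genes were called by limma (4 at an unadjusted p under 0.05), against 5.88% of all tested genes, and the fold changes are the same by construction. With all probe sets of a gene averaged, those below the filter included, Tomm40l alone of the 5 stayed called. Timm29 then measured -0.39, Hspa9 -0.29, Timm17a -0.18 and Samm50 0.15 on the log2 scale. Averaging only the probe sets above the filter, a setting chosen after seeing the data, left Tomm40l, Samm50, Timm29 and Timm17a called, with Samm50 at 0.26, and Hspa9 at -0.085 (limma adjusted p = 0.397).

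The fusion and fission genes showed no called difference. Mfn1 and Mfn2 encode the mitofusins, which join outer membranes. Mfn1 measured 961 on both shControl arrays and 1038 and 988 in shLSD1, so that the groups did not overlap, with a log2 fold change of 0.076 (95% interval -0.096 to 0.25, limma adjusted p = 0.536). Its other 2 probe sets gave -0.23 and -0.040. Mfn2 measured 1283 and 1205 in shControl and 1220 and 1313 in shLSD1. Its groups overlapped, with a log2 fold change of 0.025 (95% interval -0.15 to 0.20, limma adjusted p = 0.856). Opa1, the GTPase that fuses inner membranes and shapes cristae, measured 2278 and 2333 in shControl and 2356 and 2410 in shLSD1. The log2 fold change was 0.048 (95% interval -0.082 to 0.18, limma adjusted p = 0.615), and its other 2 probe sets gave -0.062 and 0.032.

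Dnm1l, the dynamin-related GTPase that constricts mitochondria, measured 3132 and 3068 in shControl and 3153 and 3150 in shLSD1. The log2 fold change was 0.024 (95% interval -0.096 to 0.14, limma adjusted p = 0.796). Fis1, an outer membrane protein that binds the GTPase, measured 5413 and 5275 in shControl and 5577 and 5336 in shLSD1, with overlapping groups and a log2 fold change of 0.030 (limma adjusted p = 0.728). Mff, the main recruiter of the GTPase, measured 2023 and 1972 in shControl and 1900 and 1941 in shLSD1. Its log2 fold change was -0.056 (limma adjusted p = 0.566). The 3 fission genes thus lay between -0.056 and 0.030 and the 3 fusion genes between 0.025 and 0.076.

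The proteases and the cristae organiser measured lower without passing the test. Yme1l1 and Oma1 encode the inner membrane proteases that cleave OPA1, the first constitutively and the second under stress. Yme1l1 measured 2758 and 2888 in shControl and 2486 and 2615 in shLSD1, without overlap, and the log2 fold change was -0.15 (limma adjusted p = 0.136). Oma1 measured 568 and 550 in shControl and 526 and 504 in shLSD1, also without overlap, and the log2 fold change was -0.12 (limma adjusted p = 0.445). Immt encodes mitofilin, the scaffold of MICOS. It measured 2489 and 2479 in shControl and 2323 and 2238 in shLSD1, with a log2 fold change of -0.12 (limma adjusted p = 0.183), and its other 2 probe sets gave -0.15 and -0.18. Immt and Samm50, whose products sit in 1 bridge between the membranes, therefore had estimates of opposite sign, and that difference was not tested.

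Pink1, the kinase that marks damaged mitochondria for removal, had the widest interval of the 35 genes. It measured 500 and 693 in shControl and 477 and 802 in shLSD1. In each group replicate 2 was the higher array, and the groups overlapped. The log2 fold change was 0.071 (95% interval -0.50 to 0.64, limma adjusted p = 0.878), and a second probe set gave -0.23.

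**Figure D3:**
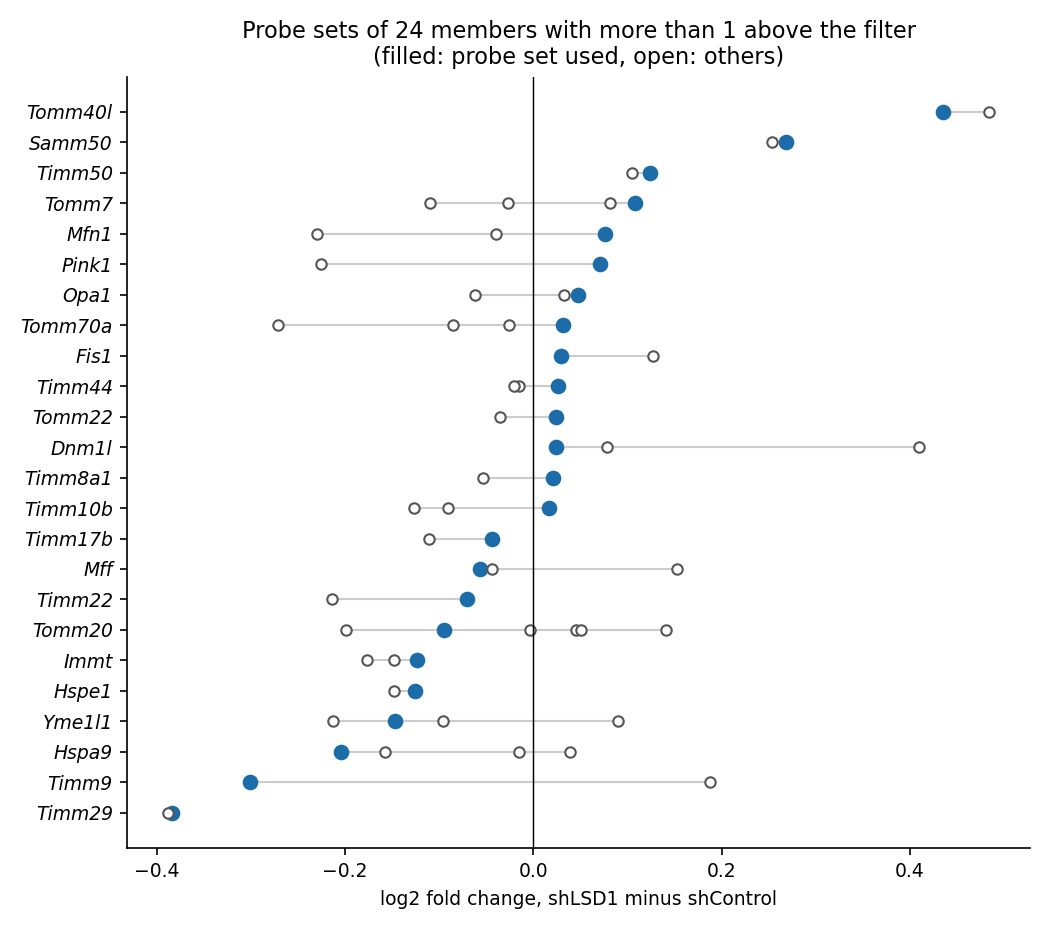
Log2 fold change (shLSD1 minus shControl, x axis) of every probe set above the filter for the 24 genes with more than 1. Filled points are the probe sets used in the text and open points the others. The probe sets of Tomm40l, Samm50 and Timm29 lie close together, at 0.44 and 0.48, 0.27 and 0.25, and -0.38 and -0.39, while those of Hspa9 run from -0.20 to 0.038.

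Other probe sets of the same genes gave a mixed picture. There were 43 further probe sets above the filter, for 24 genes, and 21 of them had the same sign as the one used. When all 19940 single-gene probe sets above the filter were tested, 2 of the 43 passed, and these were the second ones of Tomm40l and Samm50. Besides those given above, probe sets with a sign opposite to the one used were found for Tomm22 (-0.035), Timm44 (-0.016 and -0.020), Mff (0.15), Yme1l1 (0.090), Timm10b (-0.13 and -0.091), Timm8a1 (-0.053) and Tomm7 (-0.11 and -0.027). None of these passed. For Dnm1l both others had the same sign, at 0.079 and 0.41, and did not pass.

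A wider list of genes of the same pathways held 1 larger change. It has 68 measured genes for import, precursor processing, protein quality control, cristae, dynamics and mitophagy, of which Tomm20l also belongs to the 37 genes above. In this list 64 genes were tested (Tomm20l was not), 5 rose and 2 fell. This is 10.9%, against 15.8% of all tested genes, and the median log2 fold change was -0.021, against 0.0036. Chchd10 encodes an intermembrane space protein associated with MICOS. Its signal was 590 and 518 in shControl and 1047 and 1284 in shLSD1. Both shLSD1 arrays were well above the controls, and the log2 fold change was 1.07 (SE 0.12, limma adjusted p = 0.00137), or 2.10-fold. Its call held in each alternative at the 0.05 threshold, with log2 fold changes from 0.92 to 1.35.

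The other 6 calls in this list were smaller. Inf2, a formin that assembles actin at fission sites, measured 1468 and 1657 in shControl and 2201 and 1924 in shLSD1, a rise of 0.40 on the log2 scale (limma adjusted p = 0.0218). Fkbp8, an outer membrane mitophagy receptor, measured 1058 and 1123 in shControl and 1404 and 1380 in shLSD1, a rise of 0.35 (limma adjusted p = 0.0138). Phb2, a prohibitin that scaffolds inner membrane proteases, rose by 0.28 (limma adjusted p = 0.0213), and Sqstm1, the autophagy adaptor p62, rose by 0.18 (limma adjusted p = 0.0370). Rhot1, which encodes the Miro protein that couples mitochondria to motors, fell by 0.22 (limma adjusted p = 0.0372), and Marchf5, a ubiquitin ligase that acts on fission and fusion proteins, fell by 0.18 (limma adjusted p = 0.0428). Without shControl replicate 1 or without shControl replicate 2 only Chchd10 remained among the 7. With all probe sets of a gene averaged only Chchd10 and Fkbp8 stayed called. Phb2 then measured 0.044, Rhot1 0.33, Sqstm1 -0.0066, Inf2 0.43 and Marchf5 -0.14, and none of these passed. Averaging only those above the filter gave -0.084 for Rhot1, -0.16 for Marchf5 and the same values for the others, and Inf2 was then called. Marchf5 also missed the threshold with quantile normalization (limma adjusted p = 0.0521) and with every probe set tested (limma adjusted p = 0.0518).

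By function, the calls in this wider list lay in mitophagy (2 of 8 tested), fission, fusion and motility (3 of 16), cristae (1 of 8) and quality control (1 of 10), and these counts stand beside the 15.8% called over all tested genes. None of the 8 other genes for the outer membrane and intermembrane space, of the 9 for the import motor and oxidase assembly, or of the 5 processing peptidases passed in limma.

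**Figure D4:**
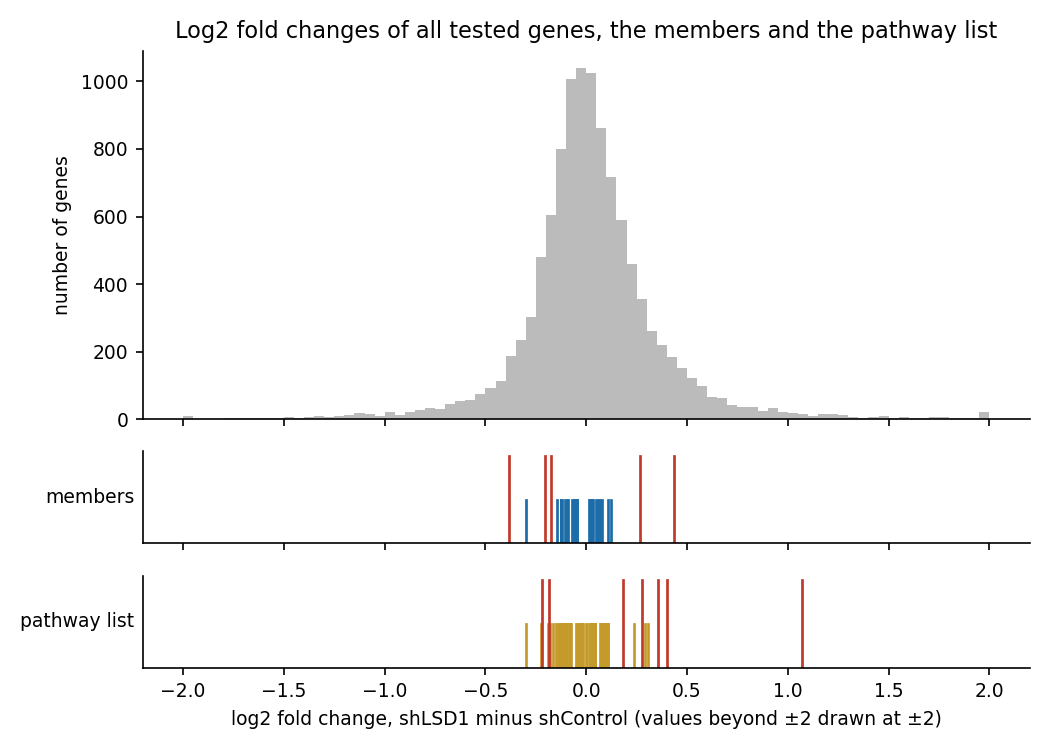
Distribution of log2 fold changes (shLSD1 minus shControl) over the 10874 tested genes (upper panel, number of genes per bin), with the 35 import and dynamics genes and the 64 genes of the wider pathway list drawn as lines below; values beyond 2 in either direction are drawn at 2. Tall red lines passed the threshold; the furthest to the right is Chchd10 at 1.07.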

How the data were processed

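The deposited values are signal intensities, 1 for each probe set and not log-transformed. Per the submitters' processing notes the authors used MAS5 and Affymetrix Expression Console, with no settings or versions stated. The mean after trimming 2% at each end was 500.003 on every array. Here, signals under 1 (505 to 704 of 45101 per array) were set to 1 and log2 was taken. Gene names came from the platform annotation. Of a gene's probe sets with 1 symbol, the one with the highest mean log2 signal was used, avoiding those ending in _x_at. Genes above the median of all probe sets were tested with limma 3.58.1 in R 4.3.3 (lmFit, eBayes with intensity trend, 7.53 total degrees of freedom), two-sided, with Benjamini-Hochberg adjustment over 10874 genes and a threshold of 0.05. A filter median without the 64 control probe sets and a mean over only the probe sets above the filter were added after seeing the data. The scripts were tested on simulated data. Median signals ran from 67.3 to 69.7, and having only 4 arrays restricts precision. Values are given per array for genes past the threshold, the 8 with the largest differences, and a fixed set of core subunits. The members and lists were chosen with earlier results of these data known, and the promoter motifs and neighbouring genes after the calls were seen. Promoter windows are the 250 bases before RefSeq starts. Figures were drawn with matplotlib 3.10.9.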

Additional observations from a re-analysis of the deposited data

How the results depend on the processing

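Settings varied were the arrays (1 left out at a time, or the replicate number as a block), scaling (median centring or quantile), the log2 offset (32), the filter (none, a mean log2 signal above 8.92, or a median without control probe sets, the last chosen after seeing the data), the variance model (no intensity trend, or robust), how probe sets are combined (all averaged, those above the filter averaged, which was added after seeing the data, or each tested), and thresholds of 0.01 and 0.10. The 5 called genes became 1 with the mean of probe sets (Tomm40l), 3 with no filter, 0 without the intensity trend (limma, 4 at an unadjusted p under 0.05) and 0 at the 0.01 threshold (limma, 8 at an unadjusted p under 0.05), and 0 to 6 with 1 array left out. It was 4 or 5 under the others. For the wider pathway list the count of 7 became 2, 4, 1 and 1 in that order, 3 with the mean of probe sets above the filter, and 1 to 8 with 1 array left out. The median of the 35 genes was -0.064 with the mean of probe sets and -0.062 with the mean of those above the filter. It was -0.066 with median centring and -0.071 to -0.020 with 1 array left out. With no filter the median was taken over 37 genes and was 0.015, and with the stricter filter over 34 genes and was -0.015. With no filter or the stricter filter the estimate of each gene was unchanged and only the set of genes differed. With median centring the median over all tested genes was also lower, at -0.018 against 0.0036. The cause of the other shifts was not tested. Over all genes the 1722 calls became 639 without the trend, 900 with averaged probe sets, 764 and 2593 at the 0.01 and 0.10 thresholds, and 582 and 580 without shControl replicate 1 and 2. Kdm1a stayed called in every alternative in which it was refitted.

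Signs turned for the following of the 35 tested genes and the 7 called pathway genes. The mean of all probe sets takes in ones below the filter, such as that of Dnm1l at -1.18 and that of Timm50 at -1.16. It gave Dnm1l -0.17, Mff 0.071, Mfn1 -0.064, Mfn2 -0.011, Pink1 -0.078, Rhot1 0.33, Sqstm1 -0.0066, Timm10b -0.27, Timm44 -0.0032, Timm50 -0.31, Timm8a1 -0.016, Tomm22 -0.0055 and Tomm70a -0.12. With only probe sets above the filter averaged, Dnm1l, Mfn2, Rhot1 and Timm50 kept their sign, Mff was 0.018, Timm10b -0.067 and Tomm70a -0.088, and Mfn1, Pink1, Sqstm1, Timm44, Timm8a1 and Tomm22 were at -0.064, -0.078, -0.0066, -0.0032, -0.016 and -0.0055. With median centring Tomm40 was -0.0066, Timm10b -0.0046 and Timm8a1 -0.00030. With 1 array left out the range was -0.0021 to 0.062 for Fis1, -0.028 to 0.078 for Mfn2, -0.30 to 0.45 for Pink1, -0.017 to 0.051 for Timm10b, -0.11 to 0.024 for Timm17b, -0.053 to 0.11 for Timm44, -0.035 to 0.078 for Timm8a1, -0.039 to 0.16 for Timm8b, -0.020 to 0.068 for Tomm22, -0.081 to 0.11 for Tomm40 and -0.011 to 0.074 for Tomm70a. None of these turned values passed limma's threshold. With the replicate number as a block, 5 of the 35 genes and 7 of the pathway list were called, the same genes as without it, against 20.4% of all tested genes. Deviations of same-numbered arrays had a correlation of 0.0029 over the tested genes, so no shared deviation was seen. With 1 pair of arrays in each group this cannot exclude a pairing.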

Other observations

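Neighbours were looked up after the calls were known. The 2 nearest tested genes on each side of the called ones, in the order of the RefSeq gene table, were read from the same fit. Of 20 such neighbours 2 were called (10.0%), against 15.8% of all tested genes, and both were neighbours of Samm50 and rose. Parvb, which encodes an adhesion adaptor, measured 0.32 (SE 0.07, limma adjusted p = 0.0211), and Tspo, which encodes an outer mitochondrial membrane protein that binds cholesterol, measured 0.21 (SE 0.05, limma adjusted p = 0.0221). Ttll12, which lies between Tspo and Samm50, measured 0.022, and Shisal1, on the far side of Parvb, measured 0.23. Neither passed. Of the 4 neighbours each of Timm29, Tomm40l, Timm17a and Hspa9, 0 passed the limma threshold. Tomm40l lay between Sdhc, at 0.012, and Adamts4, at -0.32 (limma adjusted p = 0.246). Timm29 lay between Yipf2, at 0.16 (limma adjusted p = 0.592), and Smarca4, at -0.095 (limma adjusted p = 0.281).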
